A study of Mus musculus with 2 samples.

Results

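The genes described here encode the pre-B cell receptor and the proteins that recombine its gene segments. They are Vpreb1, Vpreb2, Vpreb3, Igll1, Rag1, Rag2, Dntt, Cd79a, Cd79b and Ighm, taken by symbol, 10 of the 32288 features of the deposited matrices. Single-cell RNA sequencing was performed on periosteum, the fibrous sheet around bone, peeled from the femur and tibia of 4 week old C57BL6 mice labelled wild-type and released with collagenase. Live cells were sorted as CD45-, CD31- and Ter119-, a gate meant to remove blood, endothelial and erythroid cells, and 2 libraries of this single condition were sequenced. No label says whether the libraries came from separate mice, so every p-value below measures only the spread between these libraries, which may be technical.

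A developing B cell builds an immunoglobulin heavy chain before it has a light chain. RAG1 and RAG2 together cut the DNA at V, D and J segments, and terminal deoxynucleotidyl transferase, the product of Dntt, adds bases at the joints. The new heavy chain, whose constant part is encoded by Ighm, is tested on the cell surface with a surrogate light chain made of VPREB and lambda5, the product of Igll1, and with the signalling pair CD79A and CD79B. A cell that passes divides, then rests and recombines its light chain genes, and leaves the pre-B stage when the surrogate chain has been replaced. The bone marrow that lies beside the periosteum is where this sequence runs in a young mouse.

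After the filters (at least 500 genes, at least 500 unique molecular identifiers or UMIs, at most 10% mitochondrial UMIs) library 1 kept 6276 barcodes and library 2 kept 2893, with a median of 8164 and 6279 UMIs per cell. Only 7 kept barcodes were found in both libraries. Clusters that carried Pax5, Ebf1 and other B-lineage markers held 2668 and 1338 cells, although these cells had passed a CD45- gate. In them Ptprc, the gene of CD45, had a UMI in 53.9% and 40.7% of cells. Both libraries also held erythroid-like (1684 and 169), neutrophil-like (1044 and 140), monocyte/macrophage-like (352 and 112) and stromal cells (328 and 958), so library 1 held more blood cells and library 2 more stroma. The matrices also list reporter transcripts, and these went against the genotype label: EGFP had no UMI in library 1 and a UMI in 170 kept cells of library 2 (5.88%), 128 of them stromal and 2 B-lineage. A feature named tdTomato had UMIs in 16.4% and 29.2% of kept cells. Reporter and library cannot be told apart, so values are given for each library, and within-library ratios and fits without 1 library's sum stand beside the main differences.

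The B-lineage cells were clustered and given stages from genes other than the 10 members, so the members did not enter the clustering or the stage markers. Lef1-high cells (195 in library 1 and 208 in library 2) carried the early markers Kit, Lef1 and Erg. The other early markers of the list (Myb, Sox4, Cd34, Flt3, Spn, Akap12 and Mycn) were not counted in them. Their larger subcluster carried as many of the resting pre-B markers (Arpp21, Tifa and Ssbp2), so they are called Lef1-high cells and not pro-B cells. Lef1 was at 1006 and 868 CPM there (UMIs of the gene per 1000000 UMIs of the stage in that library), in 96.9% and 93.3% of cells, and Kit had a UMI in 24.6% and 13.5%. Cycling cells (469 and 166) were defined by Mki67, Top2a and other mitotic genes. Resting pre-B-like cells (1140 and 432) carried markers such as Il2ra, which had 55.9 and 59.9 CPM there and 0 and 0.940 CPM in the Lef1-high cells. Arpp21, of the same marker list, went the other way, at 0 and 8.66 CPM there and 218.6 and 206.9 CPM in the Lef1-high cells. Both large resting subclusters also counted the early markers Sox4 and Akap12. The one led by lambda constant genes counted Fcmr, Ltb, Cd55 and Tnfrsf13c of the Ms4a1+ list as well. Ms4a1+ B cell-like cells (314 and 244) carried Ms4a1 and class II genes. A further 838 B-lineage cells fell in 6 subclusters that met no stage's rule, and those are described by their subcluster. The rule for stages was set after the subclusters had been seen, so its independence of the members' levels is not secured. It left out subclusters B6, B7 and B8, whose Vpreb1 lay between the Lef1-high and cycling levels in both libraries.

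Among the members, Igll1 and Vpreb1 lay side by side on chromosome 16 (GRCm38, minus strand), at chr16:16860671-16863985 and chr16:16868403-16870843, with 4417 bases between them. Vpreb2 (chr16:17980428-17981273, plus strand) lay 1109584 bases from Vpreb1. Rag2 (chr2:101624718-101632529, plus strand) and Rag1 (chr2:101638282-101649501, minus strand) faced each other across 5752 bases. Dntt was at chr19:41029275-41059525, Vpreb3 at chr10:75943057-75949657, Cd79a at chr7:24897381-24902197 (all plus strand), Cd79b at chr11:106311341-106314762 and the Ighm constant gene at chr12:113418558-113422730 (both minus strand). The Vpreb1 and Vpreb2 transcripts were identical in 97.4% of 759 aligned bases, and 68 of the 411 90-base windows in the last 500 bases of each (16.5%) occurred in the other, so the split of reads between these genes is uncertain. Vpreb1 also overlaps Top3b on the opposite strand, and Rag1 and Rag2 overlap B230118H07Rik, which is on the strand of Rag1.

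The letters before the RefSeq start of both neighbouring pairs are shown because the members of each pair sit close in the genome. Each run is the 250 bases before the start in RefSeq (GRCm38.p6), 5′ to 3′ on the gene's strand, and capitals mark matches on either strand to the E-box CAGGTG (which reads CACCTG from the other strand), to the E-box CAGCTG, both of the kind that E2A binds, or to CCCNNGGG, a core of the EBF1 motif.

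Vpreb1 (chr16:16869256-16869505): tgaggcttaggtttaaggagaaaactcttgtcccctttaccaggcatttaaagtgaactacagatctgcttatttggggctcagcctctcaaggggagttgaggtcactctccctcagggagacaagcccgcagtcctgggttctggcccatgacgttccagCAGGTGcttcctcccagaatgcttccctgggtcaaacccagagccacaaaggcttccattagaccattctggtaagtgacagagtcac

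Igll1 (chr16:16863986-16864235): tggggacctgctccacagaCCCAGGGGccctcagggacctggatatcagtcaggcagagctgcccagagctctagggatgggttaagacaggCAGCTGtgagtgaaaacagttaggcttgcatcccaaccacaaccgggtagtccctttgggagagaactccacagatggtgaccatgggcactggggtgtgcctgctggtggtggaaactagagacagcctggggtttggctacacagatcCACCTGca

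Rag1 (chr2:101649533-101649782): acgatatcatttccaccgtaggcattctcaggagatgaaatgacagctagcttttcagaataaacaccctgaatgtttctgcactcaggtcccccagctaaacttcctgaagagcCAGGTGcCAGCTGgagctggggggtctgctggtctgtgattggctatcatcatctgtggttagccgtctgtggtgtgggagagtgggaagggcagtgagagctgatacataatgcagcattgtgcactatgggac

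Rag2 (chr2:101624462-101624711): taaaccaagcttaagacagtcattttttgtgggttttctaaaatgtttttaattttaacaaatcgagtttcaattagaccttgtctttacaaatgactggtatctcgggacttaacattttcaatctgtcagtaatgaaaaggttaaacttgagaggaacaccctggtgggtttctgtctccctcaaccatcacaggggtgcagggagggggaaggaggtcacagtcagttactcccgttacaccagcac

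RefSeq held windows of 250 bases before to 50 after the start for 8 of the 10 members (not Cd79b or Ighm). CAGGTG was in 5 of the 8 and in 20.2% of 32851 windows of the same length genome-wide, CAGCTG in 3 of the 8 and in 16.3%, and CCCNNGGG in 1 of the 8 (Igll1) and in 13.7%. The window of Rag2 held none of these letter runs while that of Rag1 held both E-boxes. These matches describe the letters only.

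The members followed a staged order. Vpreb1, Vpreb2, Igll1 and Dntt were high in the Lef1-high cells and low at every later named stage. Rag1 was high both there and in resting cells with a trough in cycling cells, and Vpreb3, Cd79a, Cd79b and Ighm were present at all 4 stages. Subcluster B7, which had Mki67 and high Vpreb1, Igll1 and Dntt, met no stage's rule and is outside these stages. UMIs were summed per library and stage and compared with edgeR's quasi-likelihood test (Benjamini-Hochberg adjustment over all genes tested, n = 2 libraries a stage). Between Lef1-high and cycling cells 8 of the 10 members passed as shares of UMIs, 7 higher and 1 lower in the Lef1-high cells. Of the 8905 genes tested 21.2% passed, 9.29% higher and 11.9% lower. Between cycling and resting cells 4 members passed, all lower in cycling cells as a share of UMIs (16.2% of all genes passed, 11.4% higher and 4.88% lower). Counts per cell are given with Ighm. Between resting and Ms4a1+ cells 5 passed, all higher in resting cells (3.89% of all genes, 1.58% higher and 2.30% lower). The libraries of both groups did not overlap for 9 of the 10 members at the first step (all but Cd79b), 6 at the second (all but Vpreb1, Vpreb2, Igll1 and Dntt) and 9 at the third (all but Cd79b), against 59.4%, 58.6% and 43.2% of all genes tested. The tests call fewer genes when 1 sum of a stage and library is left out and more when the library is a term in the fit. Members' calls that change are named with each gene or in the closing section. The stages were cut from other genes of the same cells, so the tests compare sums over stages and are no independent evidence that the stages exist.

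**Figure D1:**
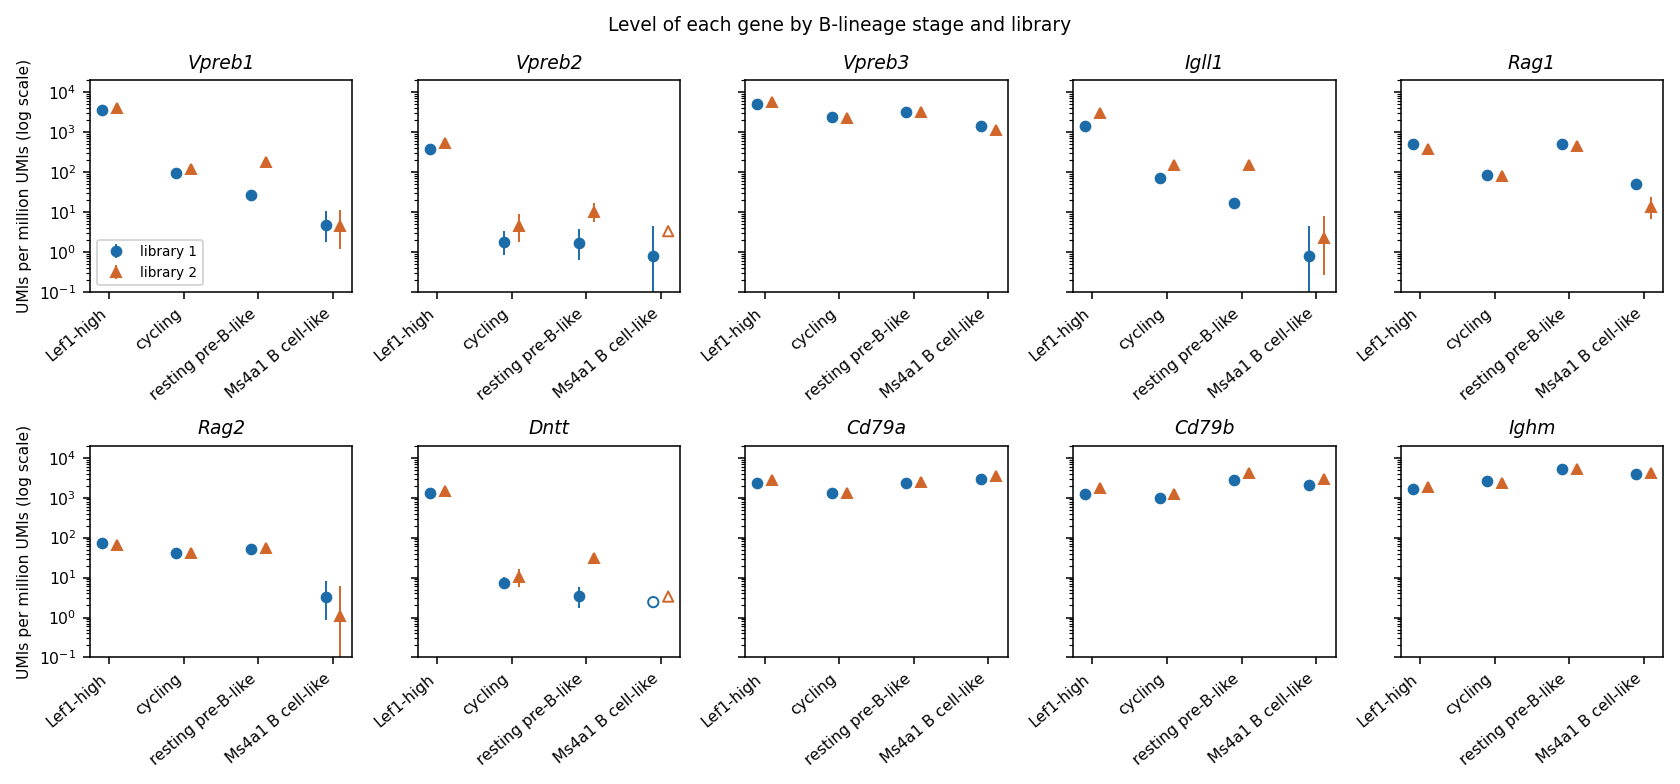
Level of each member in the 4 B-lineage stages, with the stage on the x axis and CPM (log scale) on the y axis. Points are the 2 libraries, bars are 95% Poisson intervals for counting error, and open markers show the level of 3 UMIs where none were counted. Vpreb1, Vpreb2, Igll1 and Dntt fall from the first stage, Rag1 dips in cycling cells, and Dntt has no UMI in Ms4a1+ cells.

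In the Lef1-high cells of library 1 Vpreb1, which encodes the V-like part of the surrogate light chain, stood at 3589 CPM (95% Poisson limits 3469 and 3712). Library 2 gave 4149 CPM (4028 and 4274). In cycling cells it was at 94.2 and 122.5 CPM, so the groups did not overlap and the levels were 38.1 (34.6 to 42.1) times lower in library 1 and 33.9 (29.3 to 39.3) times lower in library 2. The log2 difference was 4.98 ± 0.76 (SE, edgeR adjusted p = 0.0025). Nearly every Lef1-high cell carried the gene, 99.0% and 100% of cells, with a mean of 17.4 and 21.2 UMIs in each cell that had any.

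Igll1, the gene of lambda5, stood at 1474 and 2954 CPM in Lef1-high cells and at 70.3 and 147.9 CPM in cycling cells. Library 2 was higher than library 1 at both stages, yet the fold between stages was nearly the same within each, 21.0 (18.6 to 23.7) and 19.98 (17.5 to 22.9). The log2 difference was 4.16 ± 0.89 (edgeR adjusted p = 0.0106), and it missed the threshold without the cycling sum of library 1 (adjusted p = 0.0821). Vpreb2, the near copy of Vpreb1, was lower than Vpreb1 throughout, at 385 and 538 CPM in Lef1-high cells and 1.81 and 4.44 CPM in cycling cells. Its log2 difference of 7.20 ± 0.76 (edgeR adjusted p = 0.000255) was of the same sign as that of Vpreb1.

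Resting cells held little of the surrogate chain, and how little depended on the library. Vpreb1 was at 26.5 CPM in library 1 and 176.8 CPM in library 2 there, a ratio of 6.67 (5.24 to 8.55). Igll1 was at 16.9 and 151.6 CPM, a ratio of 8.96 (6.69 to 12.1), and Vpreb2 at 1.69 and 10.1 CPM. Vpreb3 in the same cells had a ratio of 1.00 (0.965 to 1.04) and Rag1 one of 0.909 (0.829 to 0.996), so the gap between libraries was not shared by all members. From cycling to resting cells Vpreb1 was therefore 3.55 times lower in library 1 and higher in library 2, where the cycling level was 0.693 (0.571 to 0.840) of the resting one, and the edgeR log2 difference of 0.24 ± 0.65 did not pass (adjusted p = 0.846). Igll1 did not pass either (0.52 ± 0.80, adjusted p = 0.713), but passed with the library as a term (0.91, adjusted p = 0.0231). Its cycling level was 4.152 (3.149 to 5.555) times the resting one in library 1 and 0.976 (0.806 to 1.18) times in library 2. The difference was thus seen in library 1 only. These values hung on single sums. Without the resting sum of library 2 the cycling level was higher by 2.09 for Vpreb1 (edgeR adjusted p = 0.00562) and by 2.74 for Igll1 (0.0256). Without the resting sum of library 1 the differences turned to -0.58 and -0.35, and without the cycling sum of library 2 to -0.02 and -0.16, none of them past the threshold.

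Other measures differed between the libraries too. A list of 8 stress-response genes summed to 672 CPM in resting cells of library 1 and 3562 CPM in library 2, with all 8 genes detected in each, and a list of 11 erythroid genes (11 detected in library 1 and 9 in library 2, with Epor and Gata1 at 0) summed to 1775 and 554 CPM. The median share of mitochondrial UMIs was 5.56% and 2.21%, and a subcluster led by Hspa1b, Hspa1a, Dusp10 and Jun gave 27 resting cells to library 1 and 86 to library 2. In that subcluster Vpreb1 was at 127 CPM in library 1, all of it from 1 cell, and 552 CPM in library 2, from 24 of 86 cells. In the largest resting subcluster (B0) it was at 27.7 and 108.1 CPM and Igll1 at 17.0 and 101.9 CPM. In the other large one (B1) Vpreb1 was at 17.9 and 31.3 CPM, in 3.22% and 4.07% of cells, and Igll1 at 8.14 and 44.8 CPM, in 6 and 4 cells.

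The same measures also differed between libraries at earlier stages, by amounts that varied with the stage. The stress list was at 603 and 4644 CPM in Lef1-high and 413 and 1478 CPM in cycling cells. The erythroid list was at 1493 and 1076 CPM and at 2522 and 398.5 CPM in the same order of stages. The mitochondrial share was at 4.35% and 1.502% in Lef1-high and 4.08% and 1.59% in cycling cells. The Vpreb1 ratio of library 2 to library 1 was 1.16 (1.11 to 1.21) and 1.3 (1.09 to 1.54) there, and that of Igll1 2.00 (1.88 to 2.14) and 2.10 (1.78 to 2.49). The part of these measures in the members' differences was not tested.

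In Ms4a1+ cells the surrogate chain was at the level of other cells' background. Vpreb1 was at 4.86 and 4.46 CPM, Igll1 at 0.810 and 2.23 CPM and Vpreb2 at 0.810 and 0 CPM, in library 1 and library 2. Vpreb1 was higher in resting cells by 4.37 ± 0.87 on the log2 scale (edgeR adjusted p = 0.0321) and Igll1 by 5.77 ± 1.27 (0.0421). Vpreb1 missed the threshold without either Ms4a1+ sum, with adjusted p up to 0.198. Igll1 missed it in 3 of the 4 fits that left out a sum, without resting library 2 and without either Ms4a1+ library, with adjusted p up to 0.227. Vpreb2 did not pass (adjusted p = 0.246).

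Vpreb3, which encodes a protein that joins immunoglobulin chains inside the cell, did not follow Vpreb1. It was the highest member in the Lef1-high cells at 4983 and 5737 CPM, was at 2432 and 2303 CPM in cycling cells and 3145 and 3144 CPM in resting cells, and kept 1431 and 1108 CPM in Ms4a1+ cells. The first step was a log2 difference of 1.00 ± 0.18 (edgeR adjusted p = 0.0059) and the last one of 1.29 ± 0.18 (0.0094). Without either cycling sum the first rose to adjusted p = 0.0546 at most, and the last missed the threshold in 3 of 4 such fits, all but the one without the Ms4a1+ sum of library 1 (up to 0.0716). From cycling to resting cells the difference of 0.30 passed only with the library as a term (adjusted p = 0.032 against 0.32).

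Rag1, which encodes the catalytic subunit of the recombinase, had 2 peaks. It was at 508 and 389 CPM in Lef1-high cells, 83.0 and 82.5 CPM in cycling cells, 501 and 455 CPM in resting cells and 51.0 and 13.4 CPM in Ms4a1+ cells. Set against the second peak, the first was 1.01 times as high (0.914 to 1.12) in library 1, while library 2 gave 0.855 (0.753 to 0.969). The fall into cycling cells was 2.26 ± 0.45 on the log2 scale (edgeR adjusted p = 0.00919), the rise out of them 2.42 ± 0.45 (0.00854), and the fall to Ms4a1+ cells 3.86 ± 0.50 (0.00681). Without either cycling sum the first pair of differences missed the threshold, with adjusted p up to 0.0669 and 0.0656, and their sizes stayed between 2.07 and 2.54 in every fit that left out a sum.

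Rag2, which encodes the partner subunit, had fewer molecules counted than Rag1 at each stage. It was at 72.5 and 66.8 CPM in Lef1-high cells, 42.3 and 41.9 CPM in cycling cells and 51.9 and 54.9 CPM in resting cells. Neither step passed (log2 differences of 0.55 ± 0.28 with edgeR adjusted p = 0.218, and -0.23 with 0.639), though the first did with the library as a term (adjusted p = 0.0244). Rag2 then fell to 3.24 and 1.11 CPM in Ms4a1+ cells, a log2 difference of 4.48 ± 0.41 (edgeR adjusted p = 0.00327). A UMI marks 1 captured 3′ end whatever the transcript's length, so the order of levels between genes here is one of molecules counted. Whether the steps of Rag1 and Rag2 differ from each other was not tested.

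Dntt, the gene of the transferase that adds bases at the joints, was high at the first stage and low later. It stood at 1302 and 1461 CPM in Lef1-high cells and 7.45 and 10.2 CPM in cycling cells, 174.8 (126.1 to 249.5) and 143.9 (88.4 to 252.5) times lower (log2 difference 7.15 ± 0.93, edgeR adjusted p = 0.00184). Of the Lef1-high cells 88.7% and 94.2% had a Dntt UMI. In resting cells it was at 3.39 and 31.0 CPM, a ratio of 9.17 (4.75 to 19.1) between libraries like that of Igll1, and the cycling-to-resting difference of -0.75 did not pass (adjusted p = 0.601) and changed sign under 3 other settings. Without the resting sum of library 1 it was -1.72 and passed (adjusted p = 0.0319). In Ms4a1+ cells no UMI was counted in 314 and 244 cells, which allows at most 1.17% and 1.5% of cells with a captured UMI (95% Clopper-Pearson, at a median of 3372 and 3274 UMIs per cell, and no limit on cells that carry the RNA) and a level of 2.43 and 3.34 CPM at 3 UMIs. Against that floor resting cells were at least 1.39-fold and 9.28-fold higher, and the edgeR adjusted p was 0.103, or 0.0114 with the library as a term and 0.00918 without the resting sum of library 1.

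Cd79a and Cd79b, the signalling pair, were present at every stage. Cd79a was at 2314 and 2823 CPM in Lef1-high cells, 1284 and 1333 CPM in cycling cells, 2278 and 2435 CPM in resting cells and 2963 and 3476 CPM in Ms4a1+ cells. It was higher in Lef1-high than in cycling cells (0.79 ± 0.19, edgeR adjusted p = 0.0208, missed in 3 of the 4 fits that left out a sum, up to 0.142) and lower in cycling than in resting cells (-0.73 ± 0.19, 0.0351). The latter missed the threshold in all 4 fits that left out a sum (adjusted p 0.118 to 0.195) and with DESeq2 (0.0778). Between resting and Ms4a1+ cells the difference of -0.47 passed only with the library as a term (adjusted p = 0.00247 against 0.253).

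Cd79b was at 1212 and 1789 CPM in Lef1-high cells, 979 and 1218 CPM in cycling cells, 2689 and 4167 CPM in resting cells and 2119 and 2897 CPM in Ms4a1+ cells. Library 2 was the higher one at every stage. The step from cycling to resting cells was the one that passed, -1.52 ± 0.31 on the log2 scale (edgeR adjusted p = 0.0113). It missed the threshold without the cycling sum of library 1 or the resting sum of library 2 (adjusted p up to 0.0943). The steps on either side passed only with the library as a term (0.25, adjusted p = 0.0471, and 0.42, 0.00512).

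Ighm, counted at the constant gene and so regardless of which V, D and J segments were joined, was at 1656 and 1831 CPM in Lef1-high cells and 2568 and 2327 CPM in cycling cells. It was highest in resting cells at 5284 and 5075 CPM, and stood at 4010 and 4119 CPM in Ms4a1+ cells. The rise from cycling to resting cells was 0.97 ± 0.17 on the log2 scale (edgeR adjusted p = 0.00566), missed without the cycling sum of library 2 or the resting sum of library 1 (up to 0.0626). The difference between Lef1-high and cycling cells, -0.67 ± 0.17 (adjusted p = 0.0229), missed the threshold in all 4 such fits (0.0969 to 0.177) and with DESeq2 (0.112). From resting to Ms4a1+ cells the fall of 0.33 passed only with the library as a term (adjusted p = 0.0192 against 0.368). CPM is a share of a stage's UMIs, and cycling cells were deeper than resting ones. Per cell the order reversed, with a median of 25 and 21 Ighm UMIs in cycling and 16 and 16 in resting cells. Medians of Vpreb3 (24 and 20 against 9 and 9) and Cd79a (12 and 11 against 7 and 7) reversed too. Those of Cd79b (10 and 10 against 8 and 13) did so in library 1 only, and those of Rag1 (0 and 0 against 1 and 1) did not. Cycling cells were deeper than Lef1-high cells too. Of the members called higher in Lef1-high cells, medians reversed in library 1 only for Vpreb3 (22 and 29 against 24 and 20) and Cd79a (10 and 13 against 12 and 11). Those of Vpreb1, Vpreb2, Igll1, Rag1 and Dntt did not reverse.

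The subclusters showed that the levels were graded within and between stages. In the smaller Lef1-high subcluster (16 and 17 cells, B12) Dntt was at 198.3 and 432.8 CPM against 1358 and 1521 CPM in the larger one (B4), while Rag1 was at 683 and 675 CPM against 499 and 373 CPM. Subcluster B7 (109 and 86 cells, led by Dntt, Myl10 and Bok) counted Lef1 and Erg, as the Lef1-high cells did, and Arpp21. These were too few for the rule of any stage. B7 held Vpreb1 at 1466 and 1620 CPM, Igll1 at 696 and 1346 CPM and Dntt at 1014 and 911 CPM, together with Mki67 at 545 and 232 CPM. Its Rag1 was at 150.8 and 112.4 CPM, between the levels of the Lef1-high and cycling cells. Its median depth of 16164 and 12682 UMIs was above that of any named stage.

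Subcluster B8 (148 and 44 cells, led by Nrgn) held Vpreb1 at 525.5 and 515.6 CPM and Igll1 at 366 and 643 CPM, with Rag1 at 8.39 and 10.6 CPM and Dntt at 20.4 and 49.7 CPM. It was the subcluster in which the surrogate chain was high and Rag1 was lowest among those with Vpreb1 above 500 CPM in both libraries. Its cells were also the deepest, with medians of 31910 and 30310 UMIs, its neutrophil list summed to 1807 and 31.2 CPM and its erythroid list to 1059 and 3672 CPM, and the part of doublets in it was not tested. The other subclusters with no stage were B5 (133 and 68 cells), with Rag1 at 321 and 277 CPM, Vpreb1 at 23.9 and 186.6 CPM and Ighm at 4172 and 3908 CPM, and B6 (128 and 68 cells, led by Ung and globin genes), with Vpreb1 at 213 and 300.5 CPM and Rag1 at 49.1 and 92.8 CPM. The erythroid list of B6 summed to 1235 and 26380 CPM. B11 (15 and 20 cells, median 1869 and 1286 UMIs) held Vpreb1 at 496 and 748 CPM on 34 and 22 UMIs. In B11 the erythroid list summed to 271600 and 24550 CPM and the stromal list to 160.5 and 3060 CPM. B13 (17 and 2 cells, led by Pf4 and Apoe) held 2 UMIs of Vpreb3 and 11 of Ighm in library 1 and none in library 2.

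Among resting cells, the subcluster led by lambda constant genes (B1) held more Rag1 than the largest one (B0), 758 and 732 CPM against 371 and 343 CPM. Ighm (6314 and 6416 against 4738 and 4506 CPM) and Cd79a (2844 and 3441 against 1963 and 2061 CPM) were higher there too, without overlap between the subclusters.

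**Figure D2:**
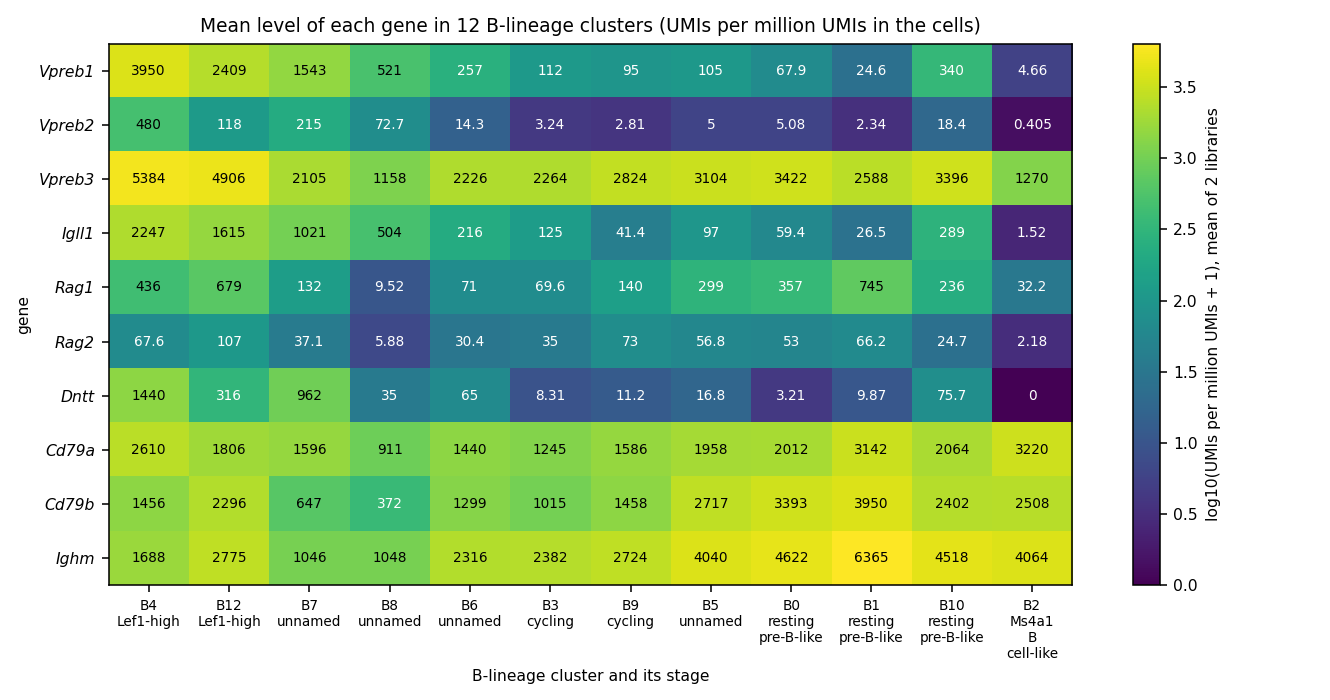
Heat map of the members (rows) in 12 subclusters of B-lineage cells (columns, with B and the subcluster number), coloured by the mean over both libraries of log-scaled CPM. Subclusters B4, B12, B7 and B8 hold the surrogate light chain genes, and Rag1 is low in B8, B3 and B9 and high again in B0 and B1.

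Detection in single cells followed the levels. Because the stages differ in depth (median 4410 and 4826 UMIs in Lef1-high, 9257 and 8826 in cycling, 3073 and 3118 in resting and 3372 and 3274 in Ms4a1+ cells), shares were compared at 1000 UMIs per cell. Rag1 was then found in 37.2% and 31.7% of Lef1-high cells, 8.62% and 8.75% of cycling cells, 36.3% and 33.0% of resting cells and 4.48% and 1.27% of Ms4a1+ cells. Without thinning the cycling share was 41.8% and 42.8% and the resting share 65.3% and 60.6%. Igll1 was found in 73.5% and 92.0%, 4.93% and 8.71%, 1.35% and 6.78%, and 0.0350% and 0.294% of cells in that order, and Dntt in 62.8% and 69.7%, 0.592% and 0.929%, 0.330% and 2.01%, and 0%.

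At that depth the genes of the pre-B receptor were found together in the few later cells that had any. In resting cells Vpreb1 and Igll1 were both found in 0.806% and 4.53% of cells, 29.6 and 9.32 times the product of their single shares. Counted without thinning, 23 of 29 resting cells of library 1 with Igll1 also had Vpreb1, and 34 of 45 in library 2. Of those 34 cells, 22 were in the stress-led subcluster (B10), where the ratio in library 2 was 3.44. The ratio was 24.03 and 13.9 in B0 and 47.3 and 9.85 in B1, where it rests on the few cells with Igll1 given above. In cycling cells the same ratio was 3.91 and 4.69, on 75 and 30 cells with both. In Lef1-high cells, where nearly all cells had both genes, it was 1.02 and 1.00.

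Igll1 with Dntt stood at 10.3 and 11.2 times the product in resting cells, but on 2 and 14 cells with both, 10 of the 14 in B10. Rag1 with Rag2 was only a little above the product, 1.28 and 1.07 in Lef1-high, 1.76 and 1.92 in cycling and 1.29 and 1.26 in resting cells. Igll1 with Rag1 was below it in cycling cells, 0.772 and 0.651 on 39 and 16 cells with both. In Lef1-high cells it was 1.03 and 1.01, on 153 cells with both in each library. Of the 8 named pairs at 3 stages, 18 of 24 ratios were above 1 in both libraries, and 11 were without thinning. These ratios are descriptions: the cells of a stage share a library and their mixture of subclusters, and no test was made.

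**Figure D3:**
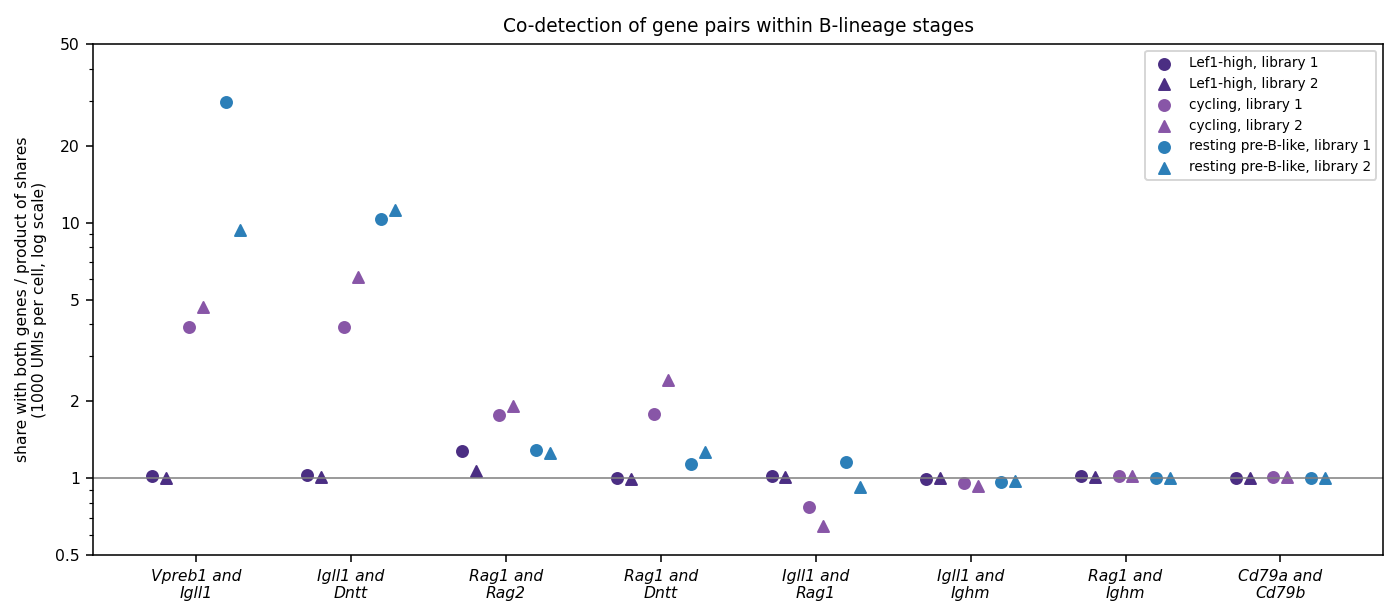
Share of cells with a UMI of both genes divided by the product of the single shares (y axis, log scale), for 8 pairs of members (x axis) at 3 stages, at 1000 UMIs per cell, with a point for each library. The highest point is Vpreb1 with Igll1 in resting cells of library 1, at 29.6. In the other library that pair is at 9.32, below Igll1 with Dntt in resting cells. Pairs that include Ighm and the pair of Cd79a and Cd79b lie near 1.

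All 10 members were higher in B-lineage cells than in the mean of the 4 other named classes, with log2 differences of 4.89 (Ighm) to 7.11 (Vpreb2) and edgeR adjusted p between 2.21e-05 and 0.000269. Of all 13855 genes tested, 33.6% passed, 18.5% higher and 15.1% lower in B-lineage cells. In B-lineage cells 18.1% of all genes tested lay either above or below all 4 other named classes in both libraries. For 9 of the 10 members every value of the other named classes lay below both B-lineage values. Dntt was the exception, at 170.3 and 341.9 CPM in B-lineage cells and 69.5 and 173.3 CPM in monocyte/macrophage-like cells. Its values overlapped only across libraries, and within each library B-lineage cells were higher.

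The background in cells that should lack these genes was low but not 0. At 1000 UMIs per cell Vpreb3 was found in 4.48% and 4.32% of erythroid-like and 1.28% and 1.57% of stromal cells, against 64.9% and 55.6% of Ms4a1+ cells. Vpreb1 was found in 0.750% and 1.90% of erythroid-like cells, so its 0.616% and 0.535% in Ms4a1+ cells lay below that background and are not read as expression. The same holds for Igll1 in Ms4a1+ cells (0.504% and 1.73% in erythroid-like cells). Dntt in cycling cells (0.592% and 0.929%) was above the erythroid-like share in library 1 (0.286%) and below it in library 2 (1.49%). Rag1 in Ms4a1+ cells was above the erythroid-like share in library 1 and below it in library 2 (0.880% and 1.34%). Shares weigh each cell alike, and levels over all 4 other named classes can rank otherwise. Rag1 ran from 0 to 15.8 CPM in those classes, beside 51.0 and 13.4 CPM in Ms4a1+ cells. Dntt ran from 0.427 to 173.3 CPM in them, beside 7.45 and 10.2 CPM in cycling cells. The top of both ranges was in monocyte/macrophage-like cells of library 2, and the Dntt+ cells of that class are described below. In the remaining named classes Dntt was below both cycling values. Median depths were 15830 and 12950 UMIs in erythroid-like cells before thinning.

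**Figure D4:**
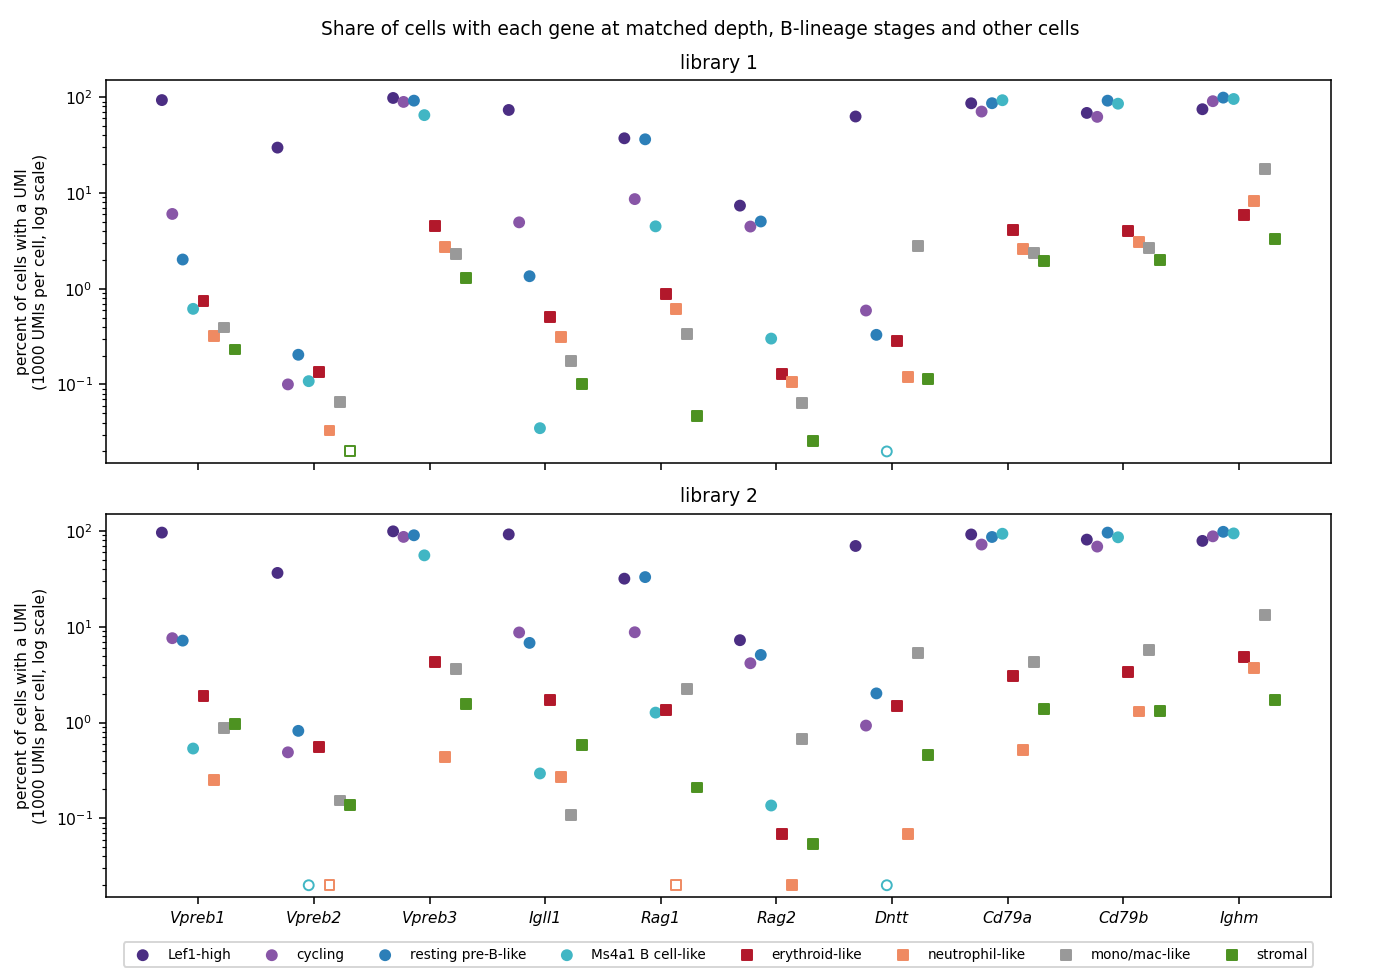
Percent of cells with a UMI of each member at 1000 UMIs per cell (y axis, log scale), library 1 above and library 2 below, for the 4 B-lineage stages (circles) and 4 other classes (squares). Open symbols mark 0. Vpreb1 and Igll1 in Ms4a1+ cells lie among the squares, while Rag1 in Lef1-high and resting cells lies far above them.

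Free RNA from 1 source keeps its genes in 1 ratio, so UMIs of each member were counted per Vpreb3 UMI and set against the mixture in B-lineage cells. Doublets with B-lineage cells would carry that mixture as well, and their part was not tested. In erythroid-like cells of library 1 the ratio was 1.06 for Vpreb1, 0.962 for Igll1, 1.195 for Rag1 and 0.860 for Dntt, close to the B-lineage mixture. In stromal cells of library 2 it was 1.03, 1.06, 1.41 and 1.12 in the same order. The other library of each class lay further from 1. Stromal cells of library 1 gave 0.622, 0.783, 0.406 and 1.99 for these 4 genes, on 9, 6, 2 and 10 UMIs, and 2.12 for Cd79a, 2.97 for Cd79b and 2.38 for Ighm. Erythroid-like cells of library 2 gave 1.69, 1.12, 3.03 and 1.71. Ighm stood above the mixture in neutrophil-like (2.87 and 13.2) and monocyte/macrophage-like cells (5.43 and 2.33), and Cd79b in neutrophil-like cells (2.01 and 4.80).

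Dntt in monocyte/macrophage-like cells departed furthest, at 25.3 (21.0 to 30.4) and 14.4 (11.6 to 18.0) times the mixture. All of its 41 Dntt+ cells were in 1 of the 2 clusters of that class, led by Ctla2a, Ccl4 and Rgs1 (323 cells), and none of 141 cells of the other had the gene. Of the 41 cells 75.6% had Flt3, 56.1% Cd34, 48.8% Il7r and 41.5% Kit, receptors and surface proteins of early progenitors, against 13.8%, 17.4%, 16.0% and 14.2% of the other 282 cells. Csf1r (14.6% against 35.8%) and Ccr2 (14.6% against 48.6%), both monocyte receptors, were rarer in them. Genes of other cells were also more often found in the Dntt+ cells, among them Siglech, a plasmacytoid dendritic cell gene (34.2% against 9.22%), and the B-lineage genes Ebf1 (34.2% against 9.57%), Cd79a (26.8% against 7.45%) and Ighm (90.2% against 56.0%). The Dntt+ cells were somewhat deeper, with a median of 18130 against 14400 UMIs, and they were singled out after their values had been seen, so no test was made.

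**Figure D5:**
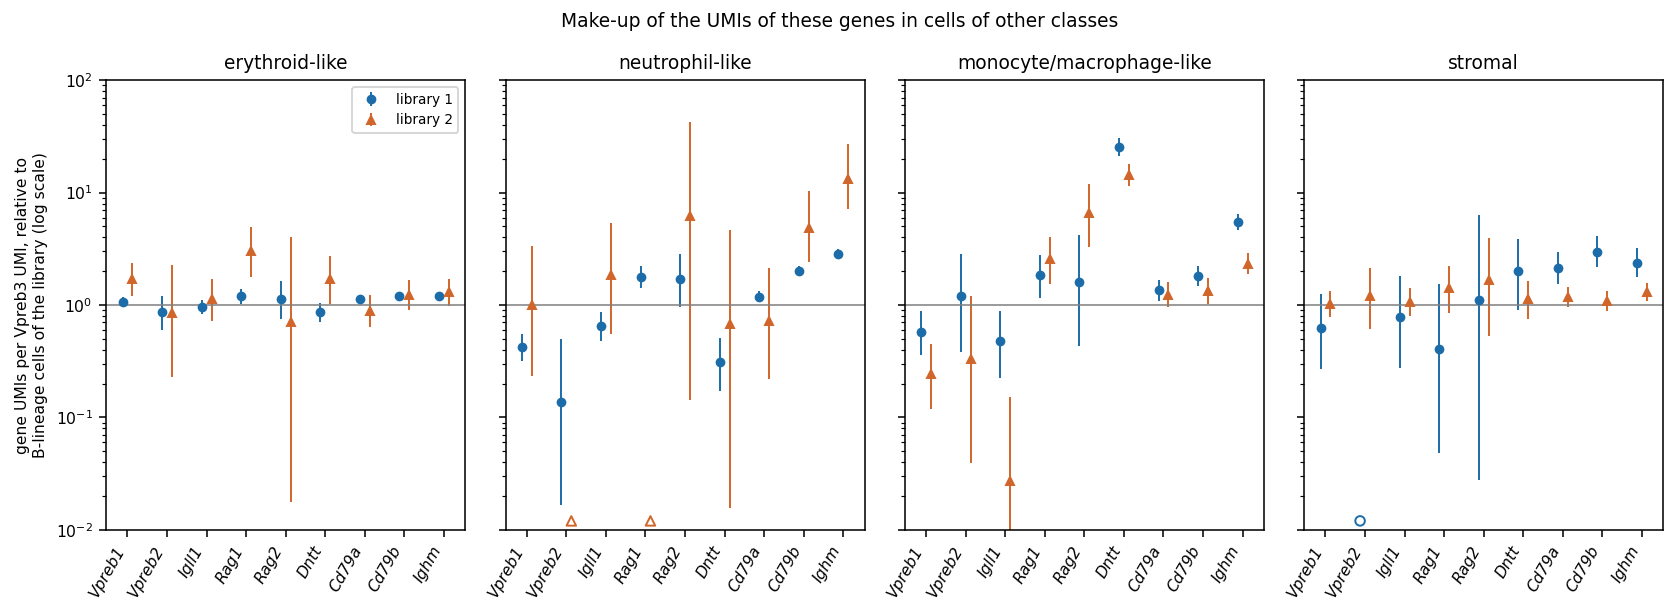
UMIs of each member per Vpreb3 UMI in 4 classes of other cells, divided by the same ratio in B-lineage cells (y axis, log scale), with members on the x axis and a point for each library. A value of 1 is the B-lineage mixture, and open points at the bottom mark genes with 0 UMIs. Dntt in monocyte/macrophage-like cells is at 25.3 and 14.4. Pooled over their clusters, erythroid-like cells of library 1 and stromal cells of library 2 lie near 1 for Vpreb1 and Igll1.

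Genes that act with the members gave a mixed picture. Of 17 tested genes of double-strand break repair and end joining, which close the cuts that RAG makes, 1 was higher and 7 lower in Lef1-high than in cycling cells, with a median log2 difference of -1.22 beside -0.05 over all genes (21.2% of which passed, 11.9% lower). The largest were H2afx (-4.85 ± 0.46, edgeR adjusted p = 0.000304), Polm (-3.68 ± 0.45, 0.000901), Hmgb2 (-3.65 ± 0.22, 9.82e-05) and Nbn (-2.50 ± 0.57, 0.0155). H2afx and Hmgb2 encode a histone variant and a chromatin protein that are made in dividing cells, and Polm a polymerase of the same family as Dntt. From cycling to resting cells 4 were higher in cycling cells and 2 lower (median 0.14 beside -0.03, with 16.2% of all genes passing), led by H2afx (5.42 ± 0.47, 0.000155), Hmgb2 (4.54 ± 0.23, 3.12e-05), Nbn (3.28 ± 0.53, 0.00416) and Hmgb1 (2.45 ± 0.19, 0.000102). From resting to Ms4a1+ cells 2 were higher and 1 lower (median -0.14 beside 0.01, with 3.89% of all genes passing). Xrcc6, which encodes the Ku70 end-binding protein, was at 685.5 to 876.9 CPM in resting and 55.7 to 109.3 CPM in Ms4a1+ cells (3.22 ± 0.32, edgeR adjusted p = 0.00355), and Lig4, the ligase of end joining, was higher in resting cells (1.78 ± 0.34, 0.0281). Nbn was lower (-3.01 ± 0.57, 0.0263).

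Of 21 genes of pre-B receptor and B cell receptor signalling 2 were higher and 3 lower in Lef1-high than in cycling cells (median -0.25 beside -0.05), where 21.2% of all genes passed. Blk, a Src-family kinase (-1.88 ± 0.29, edgeR adjusted p = 0.00269), the phosphatase gene Ptpn6 (-1.32 ± 0.26, 0.00903) and Syk, the kinase that binds phosphorylated CD79A and CD79B (-1.0 ± 0.23, 0.0165), were lower, and Fyn was higher (1.77 ± 0.48, 0.0326). From cycling to resting cells only Lyn (-1.20 ± 0.21, 0.00568) and Cd81 (0.91 ± 0.21, 0.0229) passed (median -0.49 beside -0.03), where 16.2% of all genes did. From resting to Ms4a1+ cells none was higher and 3 were lower (median -0.12 beside 0.01, with 3.89% of all genes passing), among them Cd22 (-2.34 ± 0.42, 0.0228) and Ptpn6 (-2.09 ± 0.25, 0.00677).

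Of 19 transcription factors and the cytokine receptor of B cell development 2 were higher and 4 lower in Lef1-high than in cycling cells (median -0.37 beside -0.05), where 21.2% of all genes passed. Ikzf3, which encodes Aiolos (-2.99 ± 0.32, edgeR adjusted p = 0.000535), Spi1 (-1.43 ± 0.29, 0.0105) and Irf4 (-1.35 ± 0.32, 0.0196) were lower, and Bcl6 was higher (1.86 ± 0.42, 0.016). From cycling to resting cells none was higher and Ikzf3 (-1.52 ± 0.27, 0.00617) and Ebf1 (-1.02 ± 0.18, 0.00554) were lower (median -0.25 beside -0.03), where 16.2% of all genes passed. From resting to Ms4a1+ cells 3 were higher and none lower (median 0.33 beside 0.01), where 3.89% of all genes passed. Il7r, the interleukin-7 receptor, was at 381.8 to 424.8 CPM in resting and 34.6 to 68.0 CPM in Ms4a1+ cells (2.95 ± 0.31, 0.00442), followed by Tcf3, which encodes E2A (1.49 ± 0.21, 0.00881), and Ebf1 (1.08 ± 0.18, 0.0148).

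Of 5 tested immunoglobulin constant genes none was higher and 2 were lower in Lef1-high than in cycling cells (median -3.68 beside -0.05, with 21.2% of all genes passing), Igkc (-3.84 ± 0.30, edgeR adjusted p = 0.00017) and Iglc3 (-3.77 ± 0.69, 0.00445). Igkc, the constant gene of the kappa light chain, is counted whether or not V and J segments were joined. It rose from 203.7 and 259.6 CPM in Lef1-high cells to 2685 and 3164 CPM in cycling and 5435 and 7251 CPM in resting cells. From cycling to resting cells 4 were lower in cycling cells and none higher (median -4.77 beside -0.03, with 16.2% of all genes passing), Iglc1 (-6.48 ± 1.25, 0.00951), Iglc3 (-4.96 ± 0.44, 0.000102), Iglc2 (-4.77 ± 0.99, 0.0125) and Igkc (-1.0 ± 0.27, 0.038). From resting to Ms4a1+ cells none of the 5 passed (median -0.48 beside 0.01, with 3.89% of all genes passing).

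The genes most like each member over the 8 sums, by Pearson's r of log2(CPM + 10) among 8881 candidates, are given as a description, since the sums share libraries and depth. Dntt and Vpreb2 shared Arpp21 as their nearest gene (r = 0.996 and 0.997), with Erg (0.996) and Gm525 (0.995) next for Dntt and Gm525 and Tnfsf10 for Vpreb2. Erg was among the early markers that defined the Lef1-high cells, and Arpp21, a resting pre-B marker, was counted in their larger subcluster too. Igll1 was nearest to Il3ra (0.995), then Inka1 and Serhl, and Vpreb1 to Ptov1 (0.988), then Glrx3 and Inka1. Rag1 was nearest to Gpam (0.989), then Sec63 and Nsg2, and Rag2 to Hibadh (0.994), then Gm37065 and Gfra1, so both recombinase subunits shared none of their nearest 3. Vpreb3 was nearest to Bst1 (0.989), AU020206 and Eci2, Cd79a to Mcl1 (0.991), Snx12 and Elovl1, Cd79b to B4galt1 (0.987), Scand1 and Cytip, and Ighm to Vamp8 (0.994), Erp29 and Irf2bp2.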

How the data were processed

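Both libraries were made with 10x Genomics 3′ chemistry. Per the labels, the authors aligned reads with Cell Ranger 6.1.2 to mm10, and the values they deposited are raw UMI counts, with no normalization. The methods of the study give a human build and no mouse annotation, so the gene positions are those of GENCODE for GRCm38. The deposited matrices held 9932 and 3659 barcodes with 100808649 and 33306452 UMIs, of which 6276 and 2893 barcodes with 92058894 and 30745895 UMIs passed the filters. Intervals cover counting error only.

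Cells were clustered with Seurat 5.3.0 in R 4.3.3 (3000 variable genes, CCA integration over 30 dimensions, 15 components, resolution 0.8). The members, immunoglobulin genes and pathway genes were kept out of the variable genes. Classes needed at least 3 markers, and scanpy 1.11.5 with Scrublet marked 124 of 6276 and 1 of 2893 barcodes as doublets, so that it hardly worked in library 2. Doublets were kept, and leaving them out was an alternative. The sums of UMIs of each class in each library were tested with edgeR 4.0.16 (TMM, filterByExpr, quasi-likelihood with bias adjustment, threshold 0.05). DESeq2 1.42.0, other scalings, no filter, other resolutions, no integration, 2000 UMIs or none in thinning, and leaving out each sum were alternatives, and 2 further ones (no high-UMI barcodes, no stress-led subcluster) were added after the data were seen. The SE is the log2 difference over the root of F. In simulated sums of the first stage comparison (8579 genes, 200 of them changed), edgeR called 52.1% of those given a log2 change of 2 but 2.5% of those given a log2 change of 1, with 6.97% of calls false. The simulated sums were drawn independently, and more genes passed in the data than were changed there, so these shares need not hold for the data.

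Stage sums with the same number come from 1 library, and their deviations moved together (r of the library differences over 8905 genes 0.580 to 0.716 in all 6 pairs of stages), so the numbers pair the sums and the fit with the library as a term (the replicate block) is given where it changes a call. The members and lists were chosen with earlier results of these data known. Named were all 10 members, up to 4 called genes of each pathway list by size, and the 3 genes most like each member. Some genes that the rule names are not reported here. Clusters and stages were named from fixed marker lists.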

Additional observations from a re-analysis of the deposited data

Results flagged for a closer look

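The barcodes that the filters left out (3656 in library 1 and 766 in library 2, with 8749755 and 2560557 UMIs) entered no comparison above, and each member had UMIs there above the level of 3 UMIs. Pooled over both libraries the levels were 18.6 CPM for Vpreb1, 1.95 for Vpreb2, 75.5 for Vpreb3, 9.37 for Igll1, 11.1 for Rag1, 0.973 for Rag2, 6.81 for Dntt, 63.6 for Cd79a, 61.3 for Cd79b and 122.9 CPM for Ighm. Within libraries all 10 were above the floor of 0.343 CPM in library 1, and all but Rag2 (0.391 CPM, 1 UMI) above that of 1.17 CPM in library 2. Vpreb3 was at 86.5 and 37.9 CPM and Ighm at 145.5 and 45.7 CPM in these barcodes, so library 1 was the higher one for both. Igll1 was at 9.26 and 9.76 CPM, within counting error of each other.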

How the results depend on the processing

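With the library as a term (replicate block) the genes called rose from 1891, 1446 and 346 in the 3 stage comparisons to 4103, 4244 and 2020, and included 1890, all 1446 and all 346 of the earlier calls. It changed no member's call other than those named in the report. Leaving out each sum in turn gave 989 to 1131, 678 to 872 and 59 to 191 genes, and 2130 to 4563 genes between B-lineage and other cells, where all sums gave 4653, with fewer sums in each fit. The cycling-to-resting differences changed sign under some of these. They ranged from -0.58 to 2.09 for Vpreb1 (-0.02 without the cycling sum of library 2), from -0.35 to 2.74 for Igll1 (-0.16 without that sum), from -1.75 to 0.72 for Vpreb2 and from -1.72 to 1.38 for Dntt. For Dntt the difference also turned to 0.77 without integration and to 0.90 without the stress-led subcluster, neither past the threshold. Igll1 between resting and Ms4a1+ cells missed the threshold without bias adjustment (edgeR adjusted p = 0.0601), at resolution 1.2 (0.0576), with members among the variable genes (0.0537) and without integration (0.0522). Dntt there passed with DESeq2 (0.0144) and without a filter (0.0493). Of 420 member results under settings other than leaving out a sum, 402 kept direction and call. Co-detection ratios above 1 in both libraries went from 18 to 11 of 24 without thinning and 17 at 2000 UMIs. The cause of these changes was not tested. With 2 libraries, changes near 1 on the log2 scale were seldom called in simulated sums.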
